A study of Mus musculus with 5 samples.

Results

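Lif, Csf3 and Socs3 were examined in mouse bone marrow mesenchymal stem cells (MSC), cells of the marrow stroma that nurture blood progenitors and can dampen T cell activity. All probe sets that the platform's annotation pairs with these 3 genes were taken, which gave 5 of the 3373 probe sets, and 3 of the 2190 named genes, in the deposited table: 1 for Lif, 1 for Csf3 and 3 for Socs3. Primary MSC cultures of 2 groups were compared on Affymetrix arrays. Co-cultured MSC (2 arrays) spent 48 h in transwells with purified T cells stimulated by antibodies to CD3 and CD28, at 10 T cells for each MSC. MSC alone (3 arrays) were kept without T cells, for a time that the labels do not state separately. Both groups were grown in Mesencult medium, and the labels name no strain, age, genotype or passage. Each array is labelled as a biological repetition, but not as a separate animal, so p-values measure the spread between these cultures. The membrane of a transwell keeps the cells apart and lets secreted proteins through.

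LIF (leukaemia inhibitory factor) is a cytokine of the interleukin-6 family. It binds its receptor LIFR together with the shared signalling chain gp130, whose bound JAK kinases then phosphorylate the transcription factor STAT3. G-CSF, the product of Csf3, drives the production of neutrophils and the release of progenitors from bone marrow, and its own receptor also signals through JAK kinases and STAT3. SOCS3 is the feedback inhibitor of both pathways: its gene is a classic STAT3 target, and the protein binds gp130 and the G-CSF receptor and blocks the attached JAK kinases.

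All 3 genes rose in co-cultured MSC. Lif rose 8.45-fold, Csf3 4.83-fold, and Socs3 between 3.88-fold and 4.43-fold on its 3 probe sets, and on every probe set both co-culture arrays lay above all arrays of MSC alone. The table itself sets how these calls can be read. Its 3373 probe sets all had groups that do not overlap, and all of them (100%) passed limma at an adjusted p below 0.05, 48.7% of them higher and 51.3% lower in co-culture. A call is therefore shared by every probe set of the table, and the sizes and spreads of the 3 genes are given as the result. The arrays measured bulk RNA, in which more expressing cells and more transcript per cell cannot be told apart. An exact permutation test over the 5 arrays, two-sided with the smaller tail doubled, cannot give a p below 0.2, the value of all 5 probe sets.

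The array medians over the table lay between 7.42 and 7.64 on the log2 scale, and Pearson's r across probe sets was at least 0.963 between arrays of a group. Of the stromal markers 9 of 15 were in the table. Pdgfra and Vcam1 were higher in co-cultured MSC, and the other 7, among them Col1a1 and Pdgfrb, were lower. None of the 18 T cell, 10 granulocyte or 7 endothelial markers was in the table, so these cells were not analysed here. Of 16 macrophage markers 2 were in the table, Mpeg1 and Ctss, and both rose. The mean log2 level of the 2 was 8.03 and 7.35 in co-culture replicates 1 and 2, against 3.74 to 4.24 in MSC alone, while Adgre1, Csf1r and Cd68 were not in the table. Their part in the results below was not tested.

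Lif is read by the probe set 1450160_at. Its log2 value was 8.907 and 8.815 in co-culture replicates 1 and 2, against 5.92, 6.95 and 4.48 in replicates 1, 2 and 3 of MSC alone. The co-culture arrays were nearly equal, whereas the arrays of MSC alone were spread over 2.47 log2 units with replicate 3 at the bottom. Lif averaged 8.86 ± 0.07 in co-cultured MSC (SD, n = 2) and 5.78 ± 1.24 in MSC alone (SD, n = 3). The difference was 3.08 ± 0.67 on the log2 scale (SE; 95% interval 1.45 to 4.70), with an adjusted p of 0.00673 in limma over the whole table. The fold depended on which arrays of MSC alone were used. Without MSC alone replicate 3 it was 5.38, with an adjusted p of 0.00601 in limma, and without MSC alone replicate 2 it was 12.7. The value of 4.48 in MSC alone replicate 3 lay toward the lowest value of the table, 2.62, where RMA compresses values. The size of the Lif fold is therefore uncertain. The lowest co-culture value still lay 1.86 log2 units above the highest value of MSC alone.

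Csf3 is read by 1419427_at. Its log2 value was 6.37 and 6.31 in co-culture replicates 1 and 2, against 4.03, 4.33 and 3.85 in MSC alone replicates 1, 2 and 3. The arrays within each group were close together and the groups were 1.98 log2 units apart. Csf3 averaged 6.34 ± 0.04 in co-cultured MSC (SD, n = 2) and 4.07 ± 0.24 in MSC alone (SD, n = 3). The difference was 2.27 ± 0.21 on the log2 scale (SE; 95% interval 1.77 to 2.77), with an adjusted p of 0.00118 in limma. No single array carried this difference, which lay between 2.16 and 2.40 with each array left out in turn. The level in MSC alone lay toward the lowest value of the table, 2.62. RMA gives no detection call and compresses low values, so whether MSC alone expressed Csf3 could not be read. The spread in MSC alone and the size of the fold are uncertain.

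Socs3 is read by 1416576_at and by 1455899_x_at and 1456212_x_at, whose suffix marks probes that may also bind other transcripts. On 1416576_at the log2 value was 9.93 and 10.515 in co-culture replicates 1 and 2, against 8.33, 8.66 and 7.24 in MSC alone replicates 1, 2 and 3. On 1455899_x_at it was 11.58 and 12.53 in co-cultured MSC, against 10.14, 10.74 and 9.41 in MSC alone. On 1456212_x_at it was 10.47 and 11.37 in co-cultured MSC, against 9.09, 9.44 and 8.19 in MSC alone. The array order was the same on all 3: co-culture replicate 2 was highest, and MSC alone replicate 3 lowest. The differences were 2.15 ± 0.45, 1.95 ± 0.46 and 2.02 ± 0.44 on the log2 scale (SE) for the probe sets in the order given, with adjusted p of 0.00621, 0.00785 and 0.00684 in limma. These probe sets report on the same RNA and are not replicates. Without variance moderation the adjusted p of 1455899_x_at was 0.0504, just above the threshold of 0.05, in limma's linear model.

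**Figure D1:**
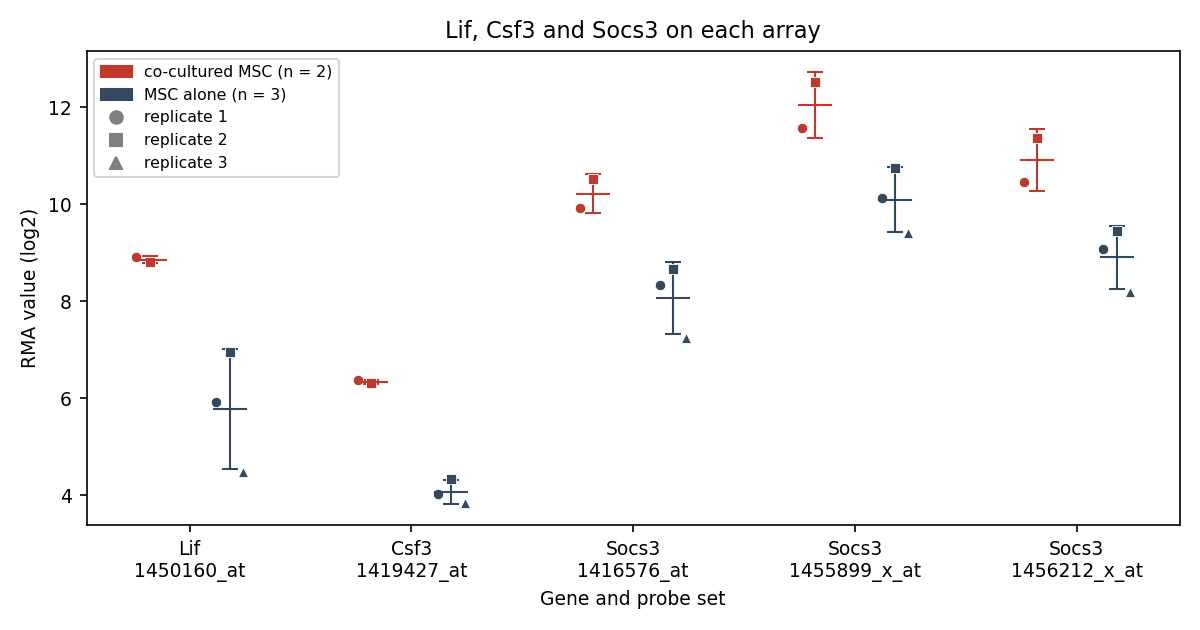
RMA values on the log2 scale (y axis) for the Lif, Csf3 and Socs3 probe sets (x axis), with co-cultured MSC in red (n = 2) and MSC alone in dark blue (n = 3). Points are arrays, with the replicate number as the symbol, and bars are means with SD; on all 5 probe sets replicate 3 is the lowest array of MSC alone and no array of 1 group overlaps the other.

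The promoters of Lif and Socs3 are shown because both genes rose and Socs3 is a known STAT3 target. Csf3 rose too, but the promoter set used held no entry for it, so its promoter was not searched. The sequences are RefSeq's for build GRCm38.p6, each with 250 bases before and 50 after the gene's start, and all 3 genes lie on chromosome 11. Capitals mark matches to 1 of 6 motifs, searched on both strands. The motifs were STAT (TTCNNNGAA), C/EBP (TTGCNNAA), AP-1 (TGANTCA), the TATA box (TATAAA), the kappaB consensus and the interferon-stimulated response element, and no 2 matches overlapped. The Lif window is chr11:4257318-4257617 on the plus strand and the Socs3 window chr11:117969317-117969616 on the minus strand.
Lif: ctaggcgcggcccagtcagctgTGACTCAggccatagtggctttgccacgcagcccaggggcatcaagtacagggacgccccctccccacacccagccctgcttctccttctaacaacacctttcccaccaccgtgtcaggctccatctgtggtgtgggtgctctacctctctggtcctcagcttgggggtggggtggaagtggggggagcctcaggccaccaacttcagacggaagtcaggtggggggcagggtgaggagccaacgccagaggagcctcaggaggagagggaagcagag
Socs3: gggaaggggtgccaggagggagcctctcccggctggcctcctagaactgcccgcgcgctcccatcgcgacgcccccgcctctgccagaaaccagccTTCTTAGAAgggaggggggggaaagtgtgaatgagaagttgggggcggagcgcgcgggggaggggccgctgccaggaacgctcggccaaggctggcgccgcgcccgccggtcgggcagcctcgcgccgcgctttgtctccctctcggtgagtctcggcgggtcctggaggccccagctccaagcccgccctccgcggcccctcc

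The Socs3 window held 1 STAT match, TTCTTAGAA, which began 154 bases before the start. It held no match to the other 5 motifs. Of all 32851 mouse promoter windows of this length 8.3% hold a STAT match. The Lif window held 1 AP-1 match, TGACTCA, which began 228 bases before the start, and AP-1 matches are found in 7.81% of all windows. Among the 21 measured pathway genes with a promoter in the table, STAT matches were found for 3: Socs3, the adaptor gene Myd88 and the TNF receptor gene Tnfrsf1a. A match describes letters, not binding.

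The members differed in how much MSC alone varied. The SD of Lif in MSC alone, 1.24, was larger than that of 99.2% of the 1642 probe sets that were higher in co-culture. No groups in the table overlap, so a probe set with a wide spread in MSC alone could not have a small rise. The shares given here are therefore set in part by how the table was selected, and are description only. For Socs3 the SD of 0.65 to 0.74 exceeded 95.1% to 96.7% of them. The SD of Csf3, 0.24, lay nearer the middle, above 62.5%, but RMA compresses low values, so this spread is uncertain. The rise of Lif was larger than that of 95.1% of the higher probe sets, that of Csf3 than that of 88.3%. The rise of Socs3 was larger than that of 83.3% to 86.5%. The rises of Lif and Csf3 are uncertain in size, as low values in MSC alone enter both. Csf3 and Socs3 have no stable order: without co-culture replicate 1 Csf3 rose by 2.245 and Socs3 by 2.43 to 2.47 on the log2 scale. Their 95% intervals overlap (0.84 to 3.23 over the Socs3 probe sets), and the differences between the genes were not tested. The median rise of the higher probe sets was 1.07 and their median SD in MSC alone 0.19.

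**Figure D2:**
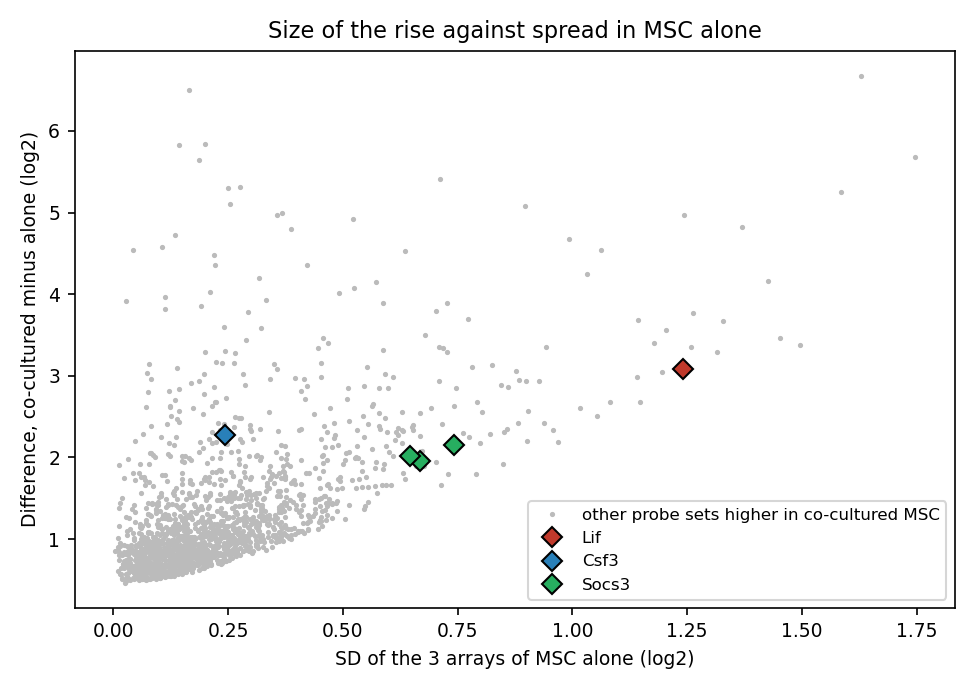
Difference between co-cultured MSC and MSC alone (y axis, log2) against the SD of the 3 arrays of MSC alone (x axis, log2), with a point for each of the 1642 probe sets higher in co-culture. Lif (red, SD 1.24) and Socs3 (green, SD 0.65 to 0.74) lie near the lower edge of the cloud. Csf3 (blue, SD 0.24) lies above that edge. The groups of every probe set are separated, so none of large spread and small rise could appear.

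In MSC alone all 5 member probe sets had the same order, with replicate 2 highest, replicate 1 next and replicate 3 lowest. That order was found in 34.9% of the 1642 higher probe sets, and replicate 3 was lowest in 821 of them, so it is common in the table. In co-culture Socs3 was higher in replicate 2 by 0.58 to 0.95 log2 units, as were 71.1% of the higher probe sets. For Lif and Csf3 the difference of replicate 2 minus replicate 1 was -0.09 and -0.06.

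Signalling and feedback genes around the members were taken from lists of 125 genes, of which 30 were in the table, each read on its brightest probe set. Of these 30, 28 rose and 2 fell, beside 48.3% higher and 51.7% lower over the 2190 named genes. The median difference of the 27 genes other than the members was 1.45 on the log2 scale, against -0.61 over all named genes. The latter mixes rises and falls, and the named genes that were higher had a median rise of 1.05. As the lists were chosen with earlier results of these data known, these counts and medians are description only. The shares of 48.3% and 51.7% and the median rise of 1.05 stand beside each list below. Only probe sets whose groups do not overlap are in the table. Whether the other listed genes changed could not be read, so no list is read as a whole. MSC alone replicate 3 was the lowest control in 13 of the 25 listed genes other than the members that rose.

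Among ligands of the interleukin-6 family 2 of 11 were in the table, Lif and Clcf1. Both rose, beside 48.3% of all named genes. Clcf1, a cytokine that signals through LIFR and gp130 together with the CNTF receptor, was at 7.64 and 8.58 in co-culture replicates 1 and 2, against 6.72, 6.565 and 6.70 in MSC alone. It rose by 1.45 ± 0.30 (SE), and its other probe set rose by 1.30. Unlike Lif it was even across MSC alone and higher in co-culture replicate 2. None of the 10 listed receptor genes, among them Lifr, Il6st (gp130) and Csf3r, was in the table, so receptor levels were not analysed here.

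Of 11 JAK and STAT genes 4 were in the table and all 4 rose, beside 48.3% of all named genes. Stat3 stood at 9.83 and 9.80 in co-cultured MSC, against 9.06, 9.11 and 9.135 in MSC alone. It rose 1.63-fold, the least of the 4, with arrays of each group nearly equal. Jak1 and Jak2, kinases that gp130 and the G-CSF receptor use, rose by 1.10 ± 0.27 and 1.45 ± 0.26 on the log2 scale (SE). In MSC alone Jak1 was lowest in replicate 3 and Jak2 was highest there. Stat2, which acts downstream of interferon receptors, rose by 2.62 ± 0.17.

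Of 18 SOCS proteins and other inhibitors 8 were in the table, of which 7 rose and 1, Socs5, fell. Socs5 was at 7.78 and 7.40 in co-cultured MSC, against 9.46, 8.88 and 9.145 in MSC alone, and fell by 1.57 ± 0.24 on the log2 scale (SE). Socs1, the inhibitor of interferon receptor signalling, was at 7.74 and 8.25 in co-cultured MSC, against 6.81, 6.70 and 5.98 in MSC alone. It rose 2.83-fold, with replicate 3 of MSC alone lowest, as for Socs3. Socs4 rose by 2.02 ± 0.45, or by 2.69 without co-culture replicate 1 and 1.35 without co-culture replicate 2. Socs7 rose by 0.82 ± 0.19. The phosphatase genes Ptpn2, which acts on JAK1 and STATs, and Ptpn11, which binds gp130, rose by 0.80 ± 0.20 and 0.65 ± 0.18. Usp18, which restrains type I interferon signalling, rose by 3.14 ± 0.33 and, unlike Socs3, was higher in co-culture replicate 1 (9.85) than in replicate 2 (8.75).

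Of 39 listed STAT3 targets 8 were in the table, Socs3 and Stat3 included, and all 8 rose. Their median was 1.70, beside 1.05 for the named genes that were higher. Pim1, a survival kinase gene, was at 7.67 and 8.75 in co-cultured MSC, against 5.29, 6.39 and 5.72 in MSC alone. It rose by 2.41 ± 0.43, and like Socs3 was highest in co-culture replicate 2. Cebpd and Cebpb, transcription factors of the acute-phase response, rose by 2.19 ± 0.19 and 1.44 ± 0.34. Cebpd was nearly equal in both co-culture arrays, at 10.575 and 10.64. Bcl2l1, an inhibitor of apoptosis, and Tnfrsf12a, the receptor of TWEAK, rose by 1.35 ± 0.31 and 0.61 ± 0.17. Lcn2, encoding the siderophore-binding protein lipocalin-2, stood at 7.31 and 7.83 in co-cultured MSC, against 3.31, 2.95 and 3.35 in MSC alone, near the lowest value of the table, so the size of its rise is uncertain, as for Csf3. Many of these genes also answer to NF-kB or interferon, and the part of each pathway was not tested.

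Csf3 belongs to 15 listed colony-stimulating and blood-forming factors, of which 5 were in the table: 4 rose and 1 fell. Csf2, encoding GM-CSF, was at 5.82 and 7.42 in co-cultured MSC, against 4.78, 4.585 and 4.25 in MSC alone. It rose by 2.08 ± 0.47 on the log2 scale (SE), or by 2.88 without co-culture replicate 1 and 1.28 without co-culture replicate 2. Its co-culture arrays lay 1.60 log2 units apart, while those of Csf3 were nearly equal. Kitl, encoding stem cell factor, rose by 1.10 ± 0.27 on its brighter probe set and by 3.59 ± 0.63 on its dimmer one. The dimmer probe set gave 4.71 without co-culture replicate 1 and 2.47 without co-culture replicate 2. Il15, which sustains lymphocytes, rose by 3.43 ± 0.45, or by 4.19 without co-culture replicate 1 and 2.68 without co-culture replicate 2. In MSC alone Csf2, Il15 and the dimmer Kitl probe set lay toward the lowest value of the table, as Csf3 did. The sizes of their rises are therefore uncertain too. Cxcl12, which holds blood progenitors in the marrow, fell by 3.52 ± 0.54.

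Csf3 is known to be induced through NF-kB and C/EBP factors, and of 29 listed genes of these routes 7 were in the table. All 7 rose, with a median of 1.51, beside 1.05 for the named genes that were higher. Cebpb and Cebpd, counted above as STAT3 targets, are among the 7. Nfkbiz, encoding a nuclear cofactor needed for many genes induced by interleukin-1 and interleukin-17, was at 11.67 and 11.78 in co-cultured MSC, against 9.52, 9.69 and 8.82 in MSC alone. It rose by 2.38 ± 0.29, and its other probe set rose by 2.97. Nfkbiz had the array order of Lif in MSC alone. Nfkbib, an NF-kB inhibitor, rose by 2.04 ± 0.27 on a probe set that may bind related transcripts. Myd88, the adaptor of interleukin-1 and Toll-like receptors, rose by 1.51 ± 0.20 and Tnfrsf1a by 0.80 ± 0.19. Zc3h12a, whose ribonuclease product degrades inflammatory messenger RNAs, rose by 1.03 ± 0.21.

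**Figure D3:**
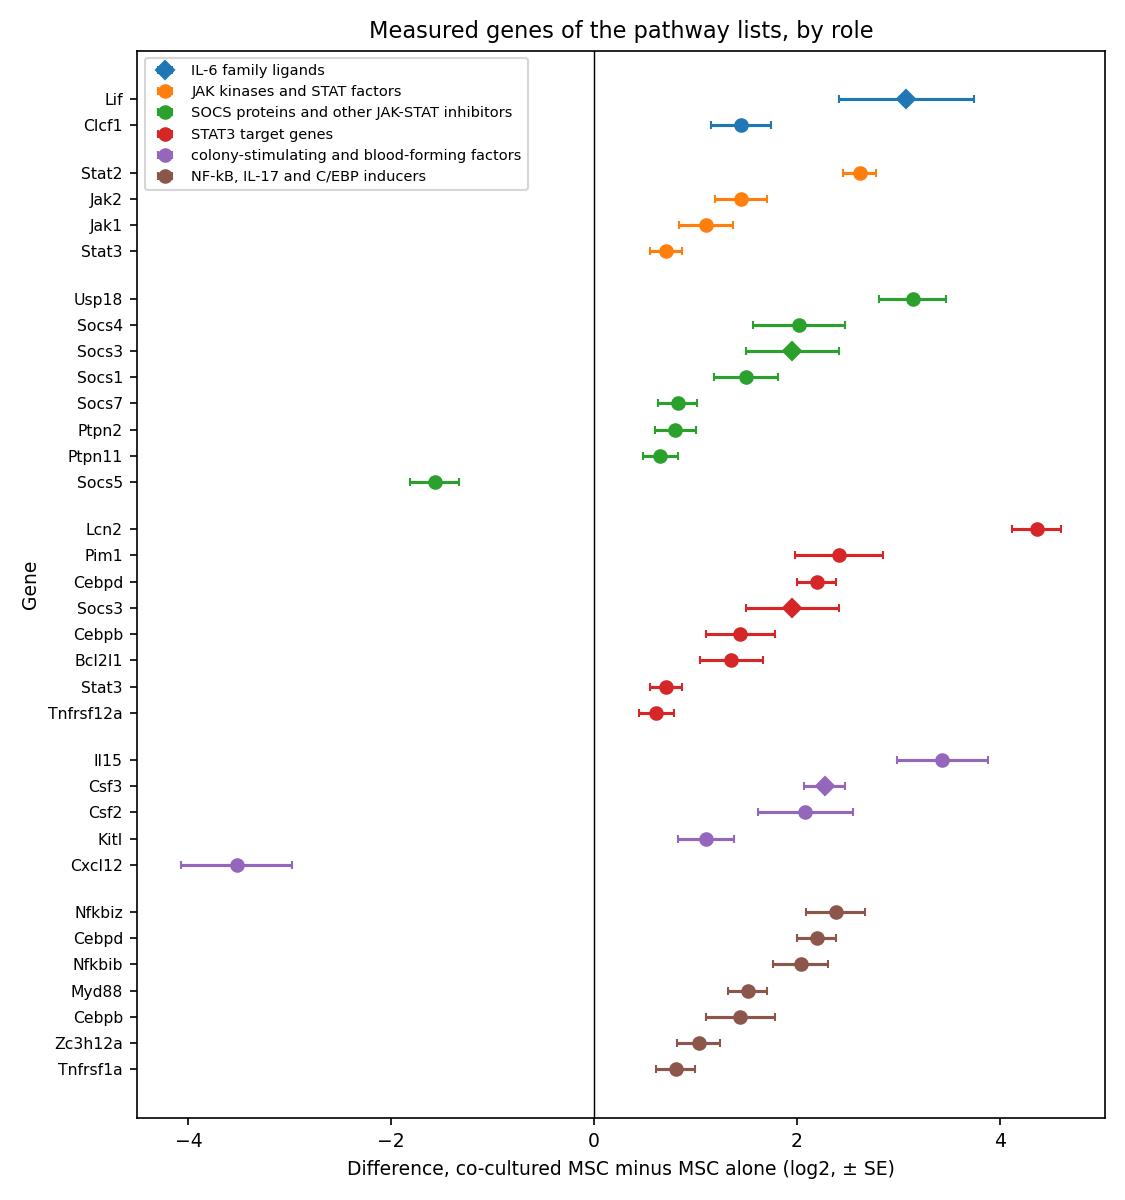
Difference between co-cultured MSC and MSC alone (x axis, log2; bars are SE from limma) for the measured genes of each list (y axis), coloured by list, with Lif, Csf3 and Socs3 as diamonds. Of the 30 genes only Socs5 and Cxcl12 lie left of 0, and genes on more than 1 list appear on each.

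The genes of most similar pattern over the 5 arrays were found by the root mean square distance between profiles centred on their own mean. For Csf3 they were Irf9, a transcription factor of interferon signalling (0.08 log2 units), Cebpd (0.10) and Whamm (0.12). For Lif they were Smurf1, a ubiquitin ligase (0.30), Rtp4 (0.33) and Dtx3l (0.33), more distant than for Csf3. In Rtp4 and Dtx3l, as in Lif, MSC alone replicate 3 stood over 1 log2 unit below the other controls. For the 2 Socs3 probe sets with the suffix they were Plscr1, Vps37b and Zfp954, at 0.10 to 0.16. For 1416576_at they were Ccbe1 (0.10), the chemokine gene Cxcl1 (0.16) and Stom (0.18). All arrays, and the separation of the groups, are shared by these profiles, and with 5 arrays many genes lie close.

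Of the protein-coding neighbours of the members on chromosome 11 in RefSeq's order, 1 was in the table. Pgs1, next to Socs3, rose on each of its 3 probe sets by 1.63 to 1.73. Like Socs3, it was highest in co-culture replicate 2 and lowest in replicate 3 of MSC alone on all 3. The other 5 neighbours, Osm and Hormad2 beside Lif, Psmd3 and Med24 beside Csf3, and Tha1 beside Socs3, were not analysed here.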

How the data were processed

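RNA of 5 arrays was compared: 2 of co-cultured MSC and 3 of MSC alone, grouped by their titles. The submitters' processing notes name RMA, without a version, and the deposited values are on its log2 scale. The method subtracts background, quantile-normalises the arrays and condenses the probes of a set into 1 value, with no detection call and with low values compressed. The table holds 3373 probe sets from 2.62 to 14.59 on the log2 scale, not a whole array. The groups were separated by at least 0.34 in every one, so the table is taken as selected on this comparison, by a rule not given in the sources used here. Such a selection favours large differences and small spreads, and errors may be too small.

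The platform annotation gave 1 symbol to 3013 probe sets, several to 69 and none to 291. Of the probe sets with 1 symbol, 3010 were matched by Entrez identifier to RefSeq genes of GRCm38.p6, with 0 symbols changed. limma 3.58.1 under R 4.3.3 (lmFit and eBayes, all arrays, no covariate, no filter) gave two-sided p-values with Benjamini-Hochberg adjustment over all probe sets. Errors are SD over arrays, or limma's SE for differences, and the number of arrays limits the precision. The fit was tested on simulated data without the selection seen in the table, so that test cannot speak for the p-values or errors given here. The members and gene lists were chosen with earlier results of these data known. Named were the member probe sets, all measured genes of 7 pathway lists, and the 3 genes of most similar pattern for each member probe set. Macrophage and stromal markers, the members' neighbours and listed genes not in the table are named outside that rule. Alternatives covered moderation, centring, prior, filter, number of tests, unit, replicate block and left-out arrays.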

Additional observations from a re-analysis of the deposited data

How the results depend on the processing

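No direction changed under any alternative run, but this outcome was fixed by the table and is no support for the members. The groups are separated by at least 0.34 in every probe set, so leaving out an array could not reverse a difference. Moderation, prior, filter and number of tests leave the difference as it is. With p-values adjusted for 15 times the number of tests, 205 probe sets were called higher and 210 lower. Of the members only Csf3 (2.27, adjusted p 0.0177 in limma) passed, with a spread that is uncertain at its low level. Lif (3.08) then had an adjusted p of 0.101, and the Socs3 probe sets 1416576_at (2.15), 1456212_x_at (2.02) and 1455899_x_at (1.95) had 0.0932, 0.103 and 0.118. In that setting the genes called higher were 0 of the interleukin-6 family ligands, 1 JAK or STAT gene, 1 inhibitor, 2 STAT3 targets, 2 blood-forming factors and 4 NF-kB and C/EBP genes, and those lower were 0 inhibitors and 0 blood-forming factors. Of the 34 other pathway probe sets 24 lost their call there and 0 in the other settings. Without variance moderation 1455899_x_at (1.95) had an adjusted p of 0.0504. Without the dimmest 25% of probe sets Csf3 was left out, which gave no value for it, and 1 blood-forming factor was higher. With 1 probe set per gene, 1057 genes were higher and 1133 lower, since fewer features were tested.

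With 1 array left out in turn the difference lay between 2.43 and 3.66 for Lif, 2.16 and 2.40 for Csf3, and 1.48 and 2.47 over the Socs3 probe sets. With an array of MSC alone left out all members kept their call, as did most of the table. In those fits 1539 to 1641 probe sets were called higher and 1655 to 1730 lower, against 1642 and 1731 with all arrays. Replicate numbers 1 and 2 occur in both groups, but no label says that a number pairs cultures. Deviations from the group means correlated at 0.22 for number 1 and 0.32 for number 2 across probe sets, with only 2 numbers to judge by. With the replicate block, in which MSC alone replicate 3 drops out of the contrast, 1636 probe sets were higher and 1729 lower, and the differences were 2.43 for Lif, 2.16 for Csf3 and 1.73, 1.61 and 1.66 for Socs3 (1416576_at, 1455899_x_at, 1456212_x_at). Centred on array medians, which moves the median difference from -0.58 to -0.42, Lif, Csf3 and the Socs3 probe sets gave 3.24, 2.44 and 2.12 to 2.31. By Pearson's correlation in place of distance, 1 of the 3 genes most like Csf3 was shared and 0 of those most like Lif or Socs3, so these neighbours depend on the measure.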
